A study of Rattus norvegicus with 12 samples.

Results

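The opioid system is built from 8 genes here, 4 that encode peptide precursors (Penk, Pdyn, Pnoc and Pomc) and 4 that encode receptors (Oprm1, Oprd1, Oprk1 and Oprl1). They were taken by gene symbol from an expression table of 34525 rat genes, and each matched 1 row. RNA was sequenced from thalamus and from rostral ventral medulla (RVM) in a series on orofacial pain. Each region had 3 libraries labelled 0.9% NS, called saline here, and 3 labelled CFA, which gives 12 libraries in 4 groups. In rodent pain research the letters CFA commonly stand for complete Freund's adjuvant, an inflammatory agent, but the labels do not spell them out. The sources used here give no strain, sex, age, dose, site or time of treatment. Separate animals are not stated for the 3 libraries of a group, and p-values therefore measure the spread between these libraries, which may be technical.

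Opioid peptides are cut from larger precursors and released from neurons. Penk encodes proenkephalin, the source of the enkephalins, Pdyn encodes prodynorphin, the source of the dynorphins, Pnoc encodes prepronociceptin, the source of nociceptin, and Pomc encodes pro-opiomelanocortin, the source of beta-endorphin and of melanocortins. Oprm1, Oprd1, Oprk1 and Oprl1 encode the mu, delta, kappa and nociceptin receptors, which signal through Gi/o proteins to lower cyclic AMP, open inwardly rectifying potassium channels and close calcium channels. Morphine acts mainly at the mu receptor. The RVM is a brainstem relay of descending pain control in which opioids act, and the thalamus relays sensory signals to the cortex.

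Promoter windows from RefSeq (assembly GRCr8) were found for Oprm1, Oprd1, Pdyn and Pomc, 4 of the 8 genes. None was found for Penk, Pnoc, Oprk1 or Oprl1, so their promoters were not searched. The windows of Oprm1 and Pomc are shown because both genes differed between the regions. Another reason is that the 2 listed starts of Oprm1 have unlike windows. Capitals mark the letters TATAAA, the core of a TATA box.
Oprm1, chr1:45585733-45586032, plus strand: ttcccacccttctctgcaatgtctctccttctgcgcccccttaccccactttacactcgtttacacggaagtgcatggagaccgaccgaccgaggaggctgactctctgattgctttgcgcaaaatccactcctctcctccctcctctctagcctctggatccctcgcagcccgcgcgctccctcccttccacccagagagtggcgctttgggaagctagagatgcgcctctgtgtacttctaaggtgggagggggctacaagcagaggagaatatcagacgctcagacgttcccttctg
Oprm1, chr1:45565121-45565420, plus strand: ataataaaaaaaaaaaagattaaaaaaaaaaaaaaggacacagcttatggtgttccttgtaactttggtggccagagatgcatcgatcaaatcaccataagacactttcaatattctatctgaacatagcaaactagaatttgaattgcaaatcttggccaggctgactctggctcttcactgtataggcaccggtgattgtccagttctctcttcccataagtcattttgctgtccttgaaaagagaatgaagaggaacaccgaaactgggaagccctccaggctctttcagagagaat
Pomc, chr6:32659103-32659402, plus strand: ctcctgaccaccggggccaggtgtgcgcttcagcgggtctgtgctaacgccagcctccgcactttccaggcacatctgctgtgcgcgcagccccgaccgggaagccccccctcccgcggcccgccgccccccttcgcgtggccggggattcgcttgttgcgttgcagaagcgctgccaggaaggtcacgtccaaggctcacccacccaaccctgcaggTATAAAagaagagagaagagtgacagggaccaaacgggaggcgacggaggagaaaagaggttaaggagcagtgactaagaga
The first Oprm1 window held 15 CpG dinucleotides and 57.7% G and C, and the second, which lies upstream of it, held 3 and 39.0%. The Pomc window held 23 CpG and 64.0% G and C. The median over all 33469 windows of this length was 7 CpG. TATAAA, searched on both strands, occurred in 1 place each in the Pomc and Pdyn windows and in 14.2% of all windows. TGACG, the core of the cyclic AMP response element, was also searched on both strands. It was not among the letters of the 5 windows of these 4 genes and occurred in 21.2% of all windows. The files do not say from which start the reads of a gene came.

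The libraries held 14944794 to 19243108 reads, recovered from the deposited FPKM values (fragments per kilobase of gene length and sequencing depth). Retina markers summed to at most 0.618 FPKM in any library, although the extraction text speaks of retinas. Hindbrain and serotonergic markers summed to 118 to 162 FPKM in RVM and 0.649 to 1.32 in thalamus, and Hoxa5 among them was at 0 in all libraries. Thalamic markers (7 of 7 measured) summed to 132 to 884 FPKM in thalamus and 74.4 to 92.5 in RVM. Within the thalamus groups libraries stood apart. Choroid plexus markers (6 of 6 measured) summed to 10226 FPKM in CFA library 1 and 2452 in CFA library 2, against 4.43 to 26.6 in the other 4 thalamus libraries. Inhibitory neuron markers summed to 570 FPKM in saline library 1 and to 106 and 151 in the other saline libraries. Cortex and hippocampus markers summed to 121 FPKM in saline library 1 and 263 in CFA library 1, against 29.5 to 69.6 in the other thalamus libraries. Habenula markers summed to 17.2 FPKM in saline library 2 and 59.9 to 91.7 in the other thalamus libraries. In bulk tissue, fewer cells of a type and less RNA per cell cannot be told apart.

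Penk had the highest mean level of the 8 genes in every group. In saline thalamus its level was 35.5, 16.5 and 10.2 FPKM in libraries 1 to 3, and in saline RVM it was 146, 151 and 131 FPKM. All RVM libraries lay far above all thalamus libraries. The mean was 20.7 ± 13.2 FPKM (SD, n = 3) in thalamus and 143 ± 10.2 in RVM, a ratio of 6.89. The difference of RVM minus thalamus was 2.90 ± 0.40 (SE) in log2(FPKM + 1), with an adjusted p of 0.0018 in limma.

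Pomc was also higher in RVM. Its level was 2.70, 2.12 and 2.70 FPKM in saline thalamus and 4.64, 5.33 and 4.59 FPKM in saline RVM, from 38 to 60 and 83 to 85 reads. The groups did not overlap, and the ratio of means was 1.94. The log2 difference was 0.74 ± 0.12, with an adjusted p of 0.00316 in limma. Pituitary markers, 5 of 6 measured, summed to 1.02 to 2.84 FPKM over the 12 libraries. The hypothalamic sum, with Pmch at 0 in all libraries, was 13.1, 105 and 2.44 FPKM in saline thalamus libraries 1 to 3. It was 1.57 to 2.90 in saline RVM. The sum of 105 came mostly from Oxt at 80.4 FPKM and Avp at 21.4, and Pomc was 2.12 FPKM in that library.

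Oprm1, the mu receptor gene, went the other way. It stood at 2.52, 8.01 and 6.50 FPKM in saline thalamus and at 0.559, 0.460 and 0.524 FPKM in saline RVM, the latter from 34 to 48 reads. The lowest thalamus library was above the highest RVM library. The RVM mean was 0.0906 of the thalamus mean, and the log2 difference was -2.03 ± 0.34, with an adjusted p of 0.00393 in limma. Oprm1 had the lowest mean FPKM of the 8 genes in RVM, in both treatment groups. It averaged 0.514 FPKM in saline RVM, below the mean of 1 FPKM required for testing. It was therefore tested between the regions only through its thalamus level.

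These 3 were the members called between the saline libraries of the regions, 2 higher and 1 lower in RVM of 8 tested. Over all genes 45.3% were called, 22.7% higher and 22.6% lower, so a call here was common in the whole table. The share called higher among all calls, 50.2%, was 30.6% when libraries were rescaled to the same total and 40.6% by limma-voom on the recovered reads, and rescaling moved the median log2 difference of all genes from 0.02 to -0.14. The median over the 8 members was 0.13. Oprm1, Penk and Pomc kept their direction and their call in every alternative that gave a value. Their log2 differences were -3.34 to -1.18, 2.505 to 3.498 and 0.57 to 0.93. Oprm1 entered the filtered fits only through thalamus, where it was higher, so its passes there add no separate support for the direction. With no filter its log2 difference was -2.03, with an adjusted p of 0.0088 in limma. In the CFA libraries of the 2 regions, which are other samples, RVM stood at 0.189 of thalamus for Oprm1, 10.9 for Penk and 1.65 for Pomc, again without overlap.

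**Figure D1:**
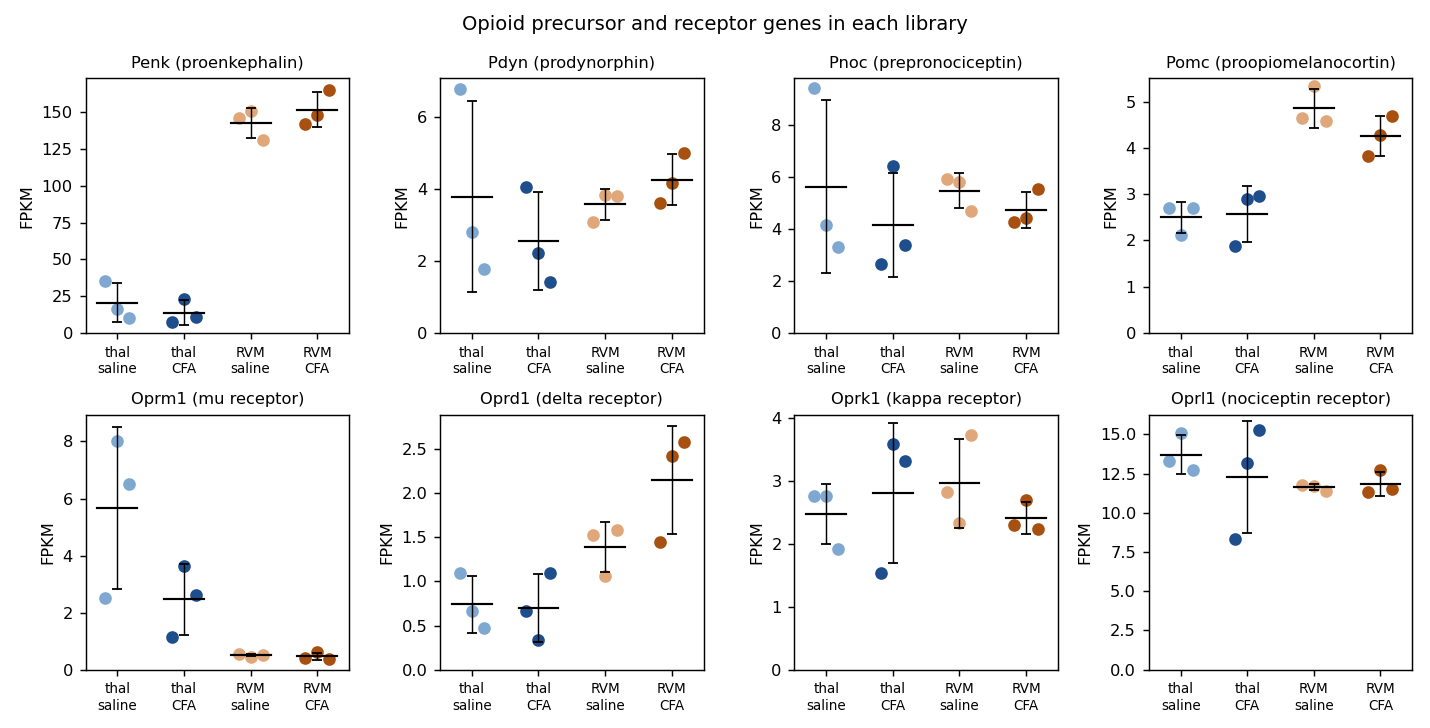
Level of each opioid gene in FPKM (y axis, linear, own scale per panel) in each library of the 4 groups; points are libraries and bars are means ± SD (n = 3). Penk and Pomc sit higher in RVM, Oprm1 sits higher in thalamus, and no gene separates CFA from saline in either region.

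The other receptors differed less between the regions. Oprl1, the nociceptin receptor gene, was the most abundant receptor in all groups, at 13.3, 15.1 and 12.7 FPKM in saline thalamus and 11.8, 11.7 and 11.4 in saline RVM. The groups did not overlap, but the log2 difference of -0.21 ± 0.08 had an adjusted p of 0.0797 in limma. It passed when libraries were rescaled to the same total, at -0.38 with an adjusted p of 0.0084, and by limma-voom, at -0.31 with 0.0227. In the CFA libraries of the regions Oprl1 overlapped.

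Oprd1, the delta receptor gene, was at 1.10, 0.660 and 0.469 FPKM in saline thalamus and 1.53, 1.06 and 1.58 in saline RVM. The groups overlapped by 1 library, and the log2 difference of 0.46 ± 0.20 had an adjusted p of 0.0994 in limma. In the CFA libraries it was 0.669, 0.332 and 1.10 FPKM in thalamus and 1.45, 2.42 and 2.58 in RVM, without overlap. The log2 difference there was 0.89, with an adjusted p of 0.0329. Between saline libraries it also passed with library quality weights (0.61, adjusted p 0.021) and without thalamus saline library 1 (0.61, adjusted p 0.0361). These levels rest on 8 to 63 reads per library. Oprd1 averaged 0.743 FPKM in saline thalamus and 0.702 in CFA thalamus, below the mean of 1 FPKM required for testing. It entered these fits only through RVM, where it was higher, so a pass adds no separate support for the direction.

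Oprk1, the kappa receptor gene, stood at 2.75, 2.75 and 1.92 FPKM in saline thalamus and 2.82, 2.33 and 3.72 in saline RVM. The groups overlapped, and the log2 difference of 0.18 ± 0.18 had a 95% interval of -0.24 to 0.61. Pdyn was 6.80, 2.81 and 1.78 FPKM in saline thalamus and 3.09, 3.85 and 3.81 in saline RVM. Pnoc was 9.44, 4.15 and 3.30 FPKM in saline thalamus and 5.92, 5.80 and 4.71 in saline RVM. For both precursors the RVM libraries lay inside the thalamus range, with log2 differences of 0.07 ± 0.36 and 0.07 ± 0.32. Saline library 1 was the highest for both in thalamus, and without it Pnoc was higher in RVM by 0.46, with an adjusted p of 0.0358. In all, 4 of 8 members did not overlap between the saline libraries of the regions, beside 58.8% of all genes, and 4 of 8 between the CFA libraries, beside 51.7%.

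The order of levels differed between the regions. FPKM divides reads by the annotated gene length, so the order of genes depends on those lengths. They were 5300 bases for Oprm1 and 1417 for Oprd1. In saline RVM Oprm1 had 34 to 48 reads and Oprd1 21 to 37, so Oprm1 came below Oprd1 only after that division. In saline thalamus Penk and Oprl1 came first and overlapped each other. Oprm1, Pnoc, Pdyn, Pomc and Oprk1 followed, each overlapping its neighbour, and Oprd1 lay below them all. In saline RVM Penk stood alone above Oprl1, Oprl1 stood alone above the rest, Pnoc and Pomc overlapped, Pdyn and Oprk1 overlapped below them, and Oprd1 and then Oprm1 came last, each apart from its neighbours.

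As a share of the summed FPKM of the 4 precursors, Penk made up 62.1% ± 4.79 in saline thalamus and 91.1% ± 0.300 in saline RVM (SD, n = 3). Pnoc was 17.3% and 3.49%, Pdyn 11.1% and 2.30%, and Pomc 9.44% and 3.10%. Of the summed receptors, Oprl1 made up 61.1% in saline thalamus and 70.7% in saline RVM. Oprm1 was 24.4% (12.8% to 30.2%) in thalamus and 3.12% ± 0.205 in RVM, and Oprd1 was 3.42% and 8.37%. In thalamus CFA the Pdyn share ran from 6.37% to 25.2%, the widest range of the precursor shares there by ratio.

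**Figure D2:**
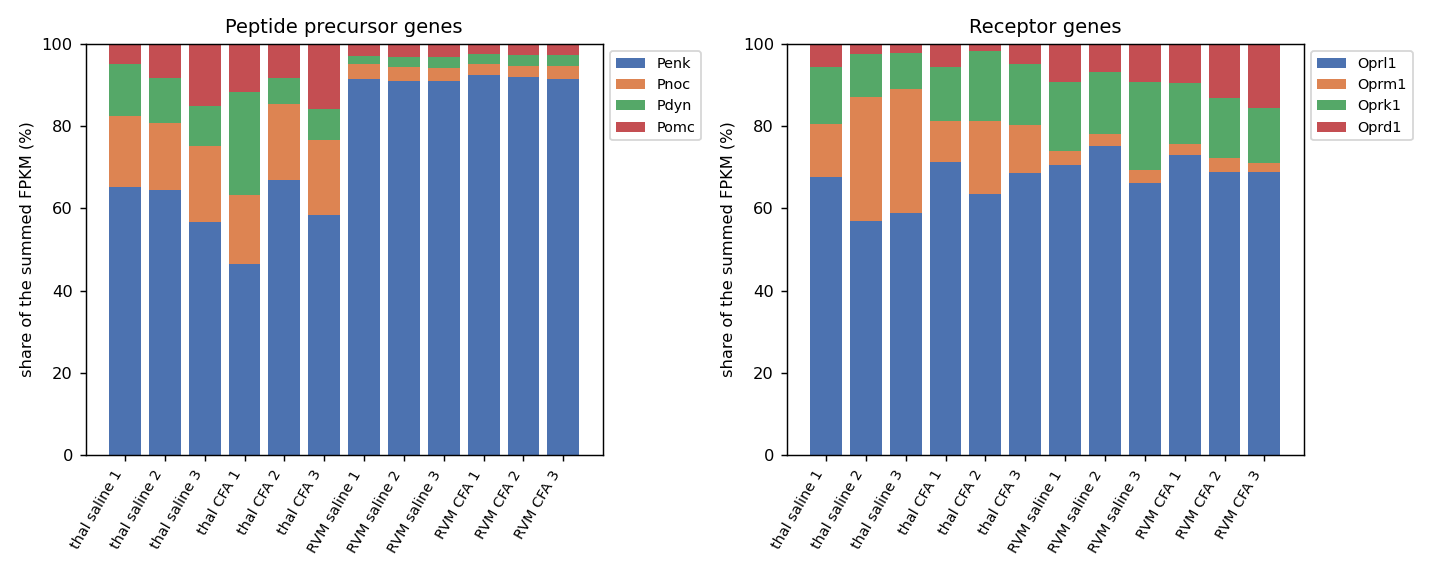
Stacked bars of the share (percent, y axis) of each gene in the summed FPKM of the 4 precursors and of the 4 receptors, 1 bar per library. Penk takes 90.9% to 92.4% of the precursors in the RVM libraries and 46.6% to 66.9% in thalamus, and Oprm1 takes 2.24% to 3.35% of the receptors in RVM and 9.84% to 30.2% in thalamus.

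CFA and saline were then compared within each region. In thalamus 0 of the 7 members tested passed in limma, and 0 of 7 had an unadjusted p below 0.05. Over all genes 4.11% were called, 3.84% higher and 0.272% lower in CFA. Limma-voom also called 0 members. None of the 8 members separated the groups, beside 29.0% of all genes. The median log2 difference of the 7 was -0.32, with 5 negative, and that of all genes was -0.08. The median of all genes turned to 0.07 when libraries were rescaled to the same total and to 0.09 by limma-voom. The 5 stayed negative there, but Oprl1 moved to -0.025 and -0.023, so small negative differences depended on scaling.

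Among the precursors in thalamus CFA, Penk was 7.51, 23.3 and 10.9 FPKM, within or below the saline range of 10.2 to 35.5. The log2 difference was -0.51 ± 0.54, with a 95% interval of -1.80 to 0.78 and an adjusted p of 0.589 in limma. Pnoc was 2.67, 6.43 and 3.38 FPKM in CFA, and Pdyn was 4.06, 2.22 and 1.41. Their log2 differences were -0.32 ± 0.40 and -0.36 ± 0.44. Leaving out saline library 1 and CFA library 1 turned Penk to 0.28 and Pnoc to 0.28, so their sign rested on those libraries. Pomc was 1.88, 2.90 and 2.96 FPKM in CFA, and its difference of 0.02 had an interval of -0.41 to 0.45.

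Oprm1 had the largest difference of the tested members in thalamus. It was 1.15, 3.64 and 2.61 FPKM in CFA, against 2.52, 8.01 and 6.50 in saline. CFA libraries 2 and 3 were above saline library 1, so the groups overlapped. The means were 2.47 ± 1.25 and 5.68 ± 2.83 FPKM (SD, n = 3), and the log2 difference was -0.91 ± 0.43, with an interval of -1.94 to 0.13 and an adjusted p of 0.274 in limma. Oprm1 passed with a block for replicate number (adjusted p 0.0281 in limma), a pairing that no label states. Oprl1 was 8.36, 13.2 and 15.3 FPKM in CFA, with a log2 difference of -0.18 ± 0.21, which turned to 0.04 without saline library 1 and CFA library 1. Oprk1 was 1.53, 3.58 and 3.31 FPKM, with a difference of 0.09 ± 0.26. Oprd1 was below the mean of 1 FPKM required for testing, at 0.743 ± 0.323 in saline and 0.702 ± 0.387 in CFA, and an exact two-sided permutation test gave p = 1. With 3 against 3 libraries that test cannot go below 0.1.

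**Figure D3:**
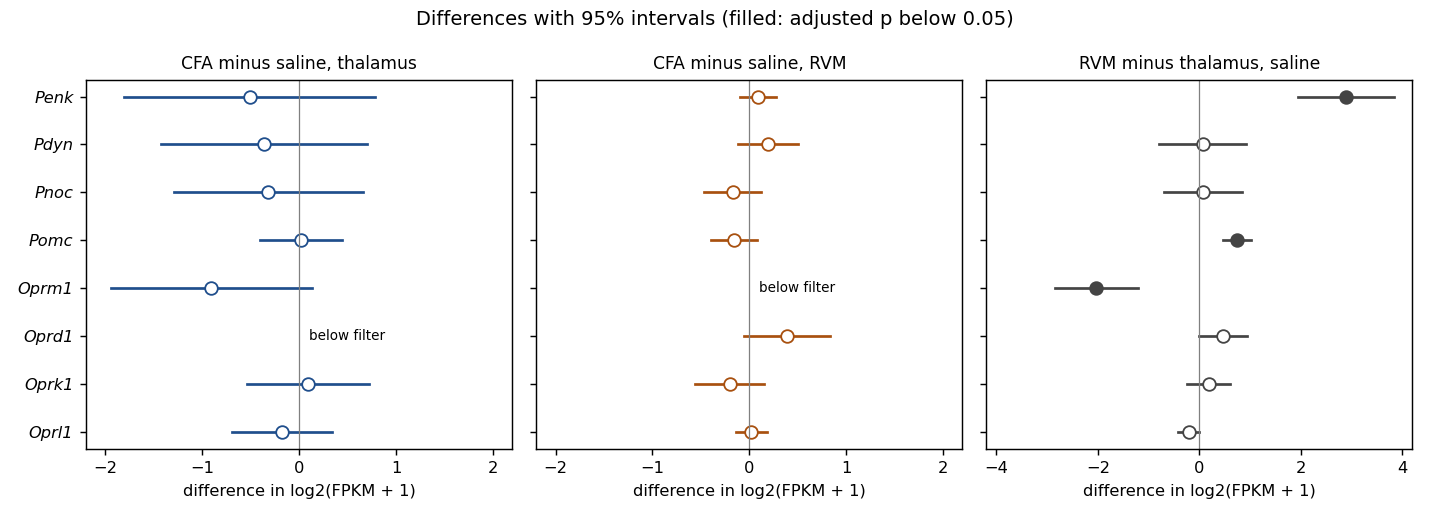
Log2 differences of the members (x axis, log2(FPKM + 1) scale) with 95% confidence intervals for CFA minus saline in thalamus, CFA minus saline in RVM, and RVM minus thalamus in saline. Filled points passed an adjusted p of 0.05 and occur only for Penk, Pomc and Oprm1 between the regions; the thalamus intervals are wider than those in RVM for the members tested in both.

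Over the 6 thalamus libraries, saline and CFA together, the highest level was 6.95 times the lowest for Oprm1, 4.83 times for Pdyn, 4.73 times for Penk and 3.54 times for Pnoc. It was 3.33 times for Oprd1, 2.34 times for Oprk1, 1.83 times for Oprl1 and 1.57 times for Pomc. In the 6 RVM libraries the ratio was largest for Oprd1, at 2.43, and 1.66 for Oprk1, 1.63 for Pdyn and 1.62 for Oprm1. It was 1.39 for Pnoc and Pomc, 1.25 for Penk and 1.13 for Oprl1.

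Oprm1 in the 6 thalamus libraries had the same order as the summed thalamic markers, which were 369, 884 and 756 FPKM in saline and 132, 499 and 427 in CFA. Per 100 FPKM of that sum, Oprm1 was 0.684, 0.906 and 0.859 FPKM in saline and 0.873, 0.730 and 0.612 in CFA, and the groups overlapped. All 7 thalamic markers had a negative CFA difference in thalamus, with a median of -1.003, and 0 of 7 passed. Penk and Pnoc were highest in the library with the highest inhibitory neuron marker sum, saline library 1, where the sum was 570 FPKM against 106 and 151 in the other saline libraries. Within CFA they were highest in library 2, where the sum was 357 FPKM against 171 and 251. The full order was not shared, since saline library 2 had the lowest sum and more Penk and Pnoc than saline library 3. Per 100 FPKM of that sum, Penk was 6.23, 15.5 and 6.72 FPKM in saline and 4.39, 6.53 and 4.33 in CFA, and Pnoc was 1.66, 3.91 and 2.19 in saline and 1.56, 1.80 and 1.35 in CFA. Of the inhibitory markers 5 of 6 had a positive CFA difference in thalamus and 0 of 6 passed. Pdyn was highest in saline library 1 and CFA library 1, at 6.80 and 4.06 FPKM. Cortex and hippocampus markers had their highest sums there, 121 and 263 FPKM, in the reverse order. Per 100 FPKM of that sum, Pdyn was 5.62, 7.38 and 2.56 FPKM in saline and 1.54, 6.27 and 4.77 in CFA. Leukocyte markers, 7 of 8 measured with Cd79a at 0 in all libraries, summed to 11.9 to 20.5 FPKM in saline thalamus and 670 to 790 in CFA. Whether these marker differences have a part in the opioid gene values was not tested. The comparison with marker sums was chosen after the values were seen, and each member was set against every marker list. Oprm1 with the thalamic sum was the only pair that shared the full order. Oprm1 also shared its highest and lowest thalamus library with the neuron and cerebellum sums. The cerebellum sum was nearly all Cbln1 in those libraries, 68.9 of 69.3 FPKM in saline library 2 and 10.1 of 10.1 in CFA library 1.

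**Figure D4:**
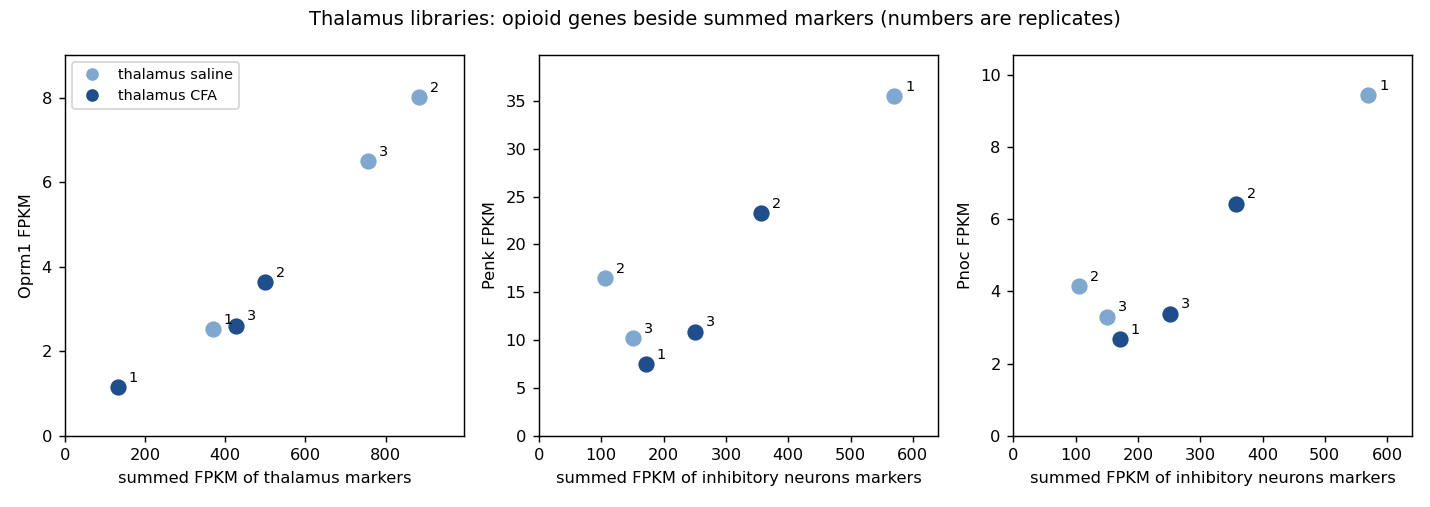
Thalamus libraries only, labelled by replicate number: Oprm1 (FPKM, y axis) against the summed FPKM of thalamic markers, and Penk and Pnoc against the summed FPKM of inhibitory neuron markers (x axes). Oprm1 runs from 1.15 FPKM at a thalamic sum of 132 to 8.01 at 884, and saline library 1 is highest for Penk and Pnoc.

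In RVM the CFA and saline libraries lay close together for most members. Limma called 0 of 7 tested members and 0% of all genes, 0 of 7 had an unadjusted p below 0.05, and 2030 of the 14289 genes tested did. Limma-voom also called 0 genes. None of the 8 members separated the groups, beside 19.8% of all genes. Penk was 142, 148 and 165 FPKM in CFA, against 146, 151 and 131 in saline, and its log2 difference of 0.09 had an interval of -0.10 to 0.27. Oprl1 was 11.3, 12.7 and 11.5 FPKM in CFA, and its interval was -0.14 to 0.18. Pomc was 3.82, 4.29 and 4.68 FPKM in CFA, against 4.64, 5.33 and 4.59, with a difference of -0.16 ± 0.10.

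Oprd1 had the largest difference of the tested members in RVM. It was 1.53, 1.06 and 1.58 FPKM in saline and 1.45, 2.42 and 2.58 in CFA, where libraries 2 and 3 lay above all saline libraries and library 1 among them. The log2 difference was 0.39 ± 0.19, with an interval of -0.06 to 0.83 and an adjusted p of 0.406 in limma. Pdyn was 3.62, 4.17 and 5.02 FPKM in CFA, with a difference of 0.20 ± 0.13. Pnoc was 4.27, 4.43 and 5.55 FPKM and Oprk1 2.30, 2.70 and 2.23 FPKM in CFA, with differences of -0.17 ± 0.12 and -0.20 ± 0.15. Oprm1 was too low to be tested, at 0.514 ± 0.0504 FPKM in saline and 0.466 ± 0.123 in CFA (SD, n = 3), and an exact two-sided permutation test gave p = 0.600. Leukocyte markers summed to 1164, 78.4 and 540 FPKM in RVM CFA and 10.7 to 21.8 in RVM saline, so CFA library 2 stood apart from the other CFA libraries. Without it limma called 484 genes in RVM and 0 of the opioid members.

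The difference of the CFA effects, RVM minus thalamus, was tested for 6 members. None passed and 0% of all genes were called, with 1560 of 13738 genes at an unadjusted p below 0.05 and 0 of the 6 members. Limma-voom called 0 genes as well. Penk had the largest estimate, 0.60 ± 0.59, and an adjusted p of 0.672 in limma. The adjusted p of the 6 ran from 0.647 to 0.907.

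Genes whose pattern was most like each member were taken by Pearson r over the 12 libraries after each region's mean was subtracted, among 12289 genes. These r are descriptions over libraries that share depth and tissue composition. For Oprm1 they were Napepld, Cacnb2 and Styk1, each at 0.99. Styk1 was 3.78, 15.0 and 11.8 FPKM in saline thalamus, 1.10, 4.33 and 3.13 in CFA thalamus, and at most 0.0844 in RVM. For Penk they were Rhof, Adra2a and Tmem158, each at 0.96, and for Pnoc they were Adra2a at 0.96, Penk at 0.95 and Rgs20 at 0.95. Adra2a encodes the alpha-2A adrenergic receptor, another Gi/o-coupled receptor. For Pdyn they were Iqsec2 at 0.99, Rasgef1a at 0.93 and Ptk2 at 0.92, and for Pomc Rgs6 at 0.87, Ift27 at 0.87 and Wdr53 at 0.84. The receptors Oprl1, Oprd1 and Oprk1 had Zmym1 at 0.97, Ebf4 at 0.92 and Terf2ip at 0.83 as their first genes.

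The enzymes that make and break opioid peptides and the proteins that act downstream of the receptors were given by 4 lists. Between the regions most of the calls were lower in RVM. Over all genes 22.7% were called higher and 22.6% lower, a balance that moved toward lower calls when libraries were rescaled to the same total, as given above. Of 9 peptide processing genes tested, 1 was higher and 5 were lower, with a median log2 difference of -0.64 beside 0.02 for all genes. Cpe, the carboxypeptidase that trims precursor fragments, was 875 ± 58.7 FPKM in saline thalamus and 403 ± 5.69 in saline RVM. Pcsk2, the convertase that cuts precursors, was 125 ± 32.2 and 34.7 ± 2.81 FPKM. Pam, which amidates peptides, had a log2 difference of -0.78. The adjusted p was 0.000187 for Cpe, 0.000728 for Pcsk2 and 0.000517 for Pam in limma.

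Of 17 Gi/o proteins and effectors, 2 were higher and 11 lower in RVM, beside 22.7% and 22.6% of all genes, with a median of -0.98. Kcnj6 and Kcnj3, subunits of the potassium channels that Gi/o proteins open, were 9.85 and 25.4 FPKM on average in saline thalamus and 1.21 and 6.57 in RVM, and Gnao1, the Go alpha subunit, was 184 and 66.5. Of 17 regulators of receptor signalling, 0 were higher and 11 lower, beside the same shares of all genes, with a median of -0.65. Rgs9 and Rgs14, among the lower, averaged 0.923 and 0.366 FPKM in saline RVM. They reached the mean of 1 FPKM required for testing only through thalamus, so they could only count as lower. Camk2a, a calcium-dependent kinase, was 250 ± 113 FPKM in saline thalamus and 13.7 ± 4.16 in saline RVM, and Rgs4, which speeds the turn-off of Gi/o proteins, was 164 ± 67.6 and 24.9 ± 1.78. The Rgs4 difference was -1.37, with an adjusted p of 0.114 in limma, between the CFA libraries of the regions. Of 9 peptide-degrading enzymes, 0 were higher and 4 lower, so that the share called was near the 45.3% of all genes, and the median was -0.15. Ece1 was 15.3 and 7.97 FPKM, a log2 difference of -0.84. Npepps and Thop1 had differences of -0.44 and -0.27, whose calls were lost in several alternatives, with an adjusted p of up to 0.362 and 0.268 in limma between the CFA libraries. Neuron markers, all 8 measured, summed to 1541 to 2207 FPKM in saline thalamus and 2574 to 2961 in saline RVM, and singly 3 were called higher and 4 lower in RVM.

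Under CFA 0 genes of the 4 lists passed in limma in either region or in the difference between regions. In thalamus the numbers with an unadjusted p below 0.05 were 5 of 9 for processing, 1 of 10 for degrading enzymes, 10 of 17 for Gi/o proteins and effectors and 6 of 17 for regulation, beside 3152 of 14722 genes. The medians were -0.36, -0.20, -0.42 and -0.23, beside -0.08 for all genes. That of all genes turned to 0.07 when libraries were rescaled to the same total and to 0.09 by limma-voom. List medians were not taken under those scalings, so their negative sign is tied to the deposited scale. Neuron markers summed to 1098 to 1597 FPKM in CFA thalamus against 1541 to 2207 in saline, with all 8 negative and 0 of 8 passed; their part in the list medians was not tested. The smallest p in the first 3 of these lists belonged to Chgb, a secretory granule protein, at -0.36 (adjusted p 0.142), Anpep, an aminopeptidase that breaks down enkephalins, at 1.14 (0.104), and Kcnj5, another potassium channel subunit, at 0.63 (0.0904). Anpep was 1.01 ± 0.128 FPKM in saline and 3.65 ± 1.74 in CFA. It passed without CFA library 2 (adjusted p 0.0333 in limma) and with all 12 libraries in a single model (0.0129), where Chgb also passed (0.029). Kcnj5 passed by limma-voom (0.0261). In RVM the smallest were Scg2 at -0.21 (adjusted p 0.32), Prep at -0.12 (0.464), Adcy5 at -0.22 (0.242) and Gnb5 at -0.22 (0.242), and list medians were -0.12 to 0.02.

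**Figure D5:**
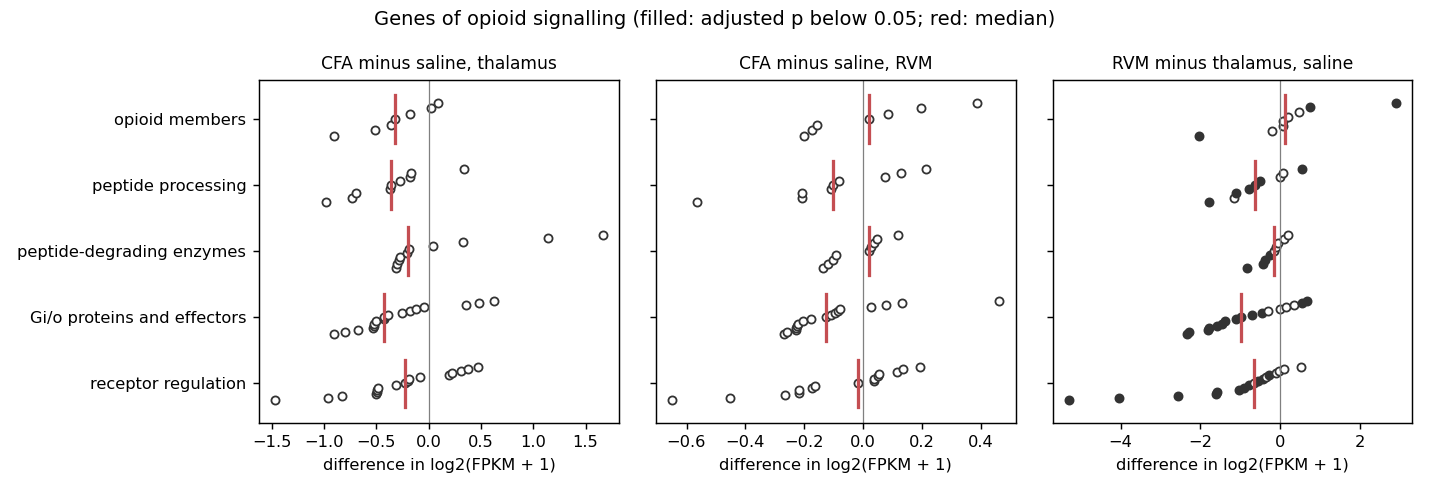
Log2 differences (x axis, log2(FPKM + 1) scale, own range per panel) of single genes as dots, filled where the adjusted p was below 0.05, and the median as a red line, for the opioid members and the 4 lists in the comparisons of CFA with saline in each region and of RVM with thalamus. In the region comparison the medians of the 4 lists lie between -0.98 and -0.15, and in RVM CFA they lie between -0.12 and 0.02.

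In the deposited annotation Oprm1 (ENSRNOG00000018191) spans chromosome 1, 43454803 to 43704948, on the plus strand, Penk (ENSRNOG00000008943) spans chromosome 5, 17056419 to 17061837, on the minus strand, and Pomc (ENSRNOG00000012686) spans chromosome 6, 28382962 to 28388967, on the plus strand. The sources used here do not name the build behind them. Within the Oprm1 span lie Ipcef1, up to 14.4 FPKM, an antisense RNA, up to 36.5 FPKM, and AABR07001432.2, an unclassified transcript, up to 50.7 FPKM, all on the minus strand. Only the spans of the genes were compared, not their exons. The library kit is not stated to keep strand, so reads from places where exons overlap, if any, could not be told apart.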

How the data were processed

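Gene levels were read from a table of FPKM values, with gene length and coordinates, that the authors deposited for 34525 Ensembl rat genes. Extraction used Trizol and library construction a TruSeq kit, per the labels' protocols. The sources used here name no aligner, counting tool, build or annotation release. FPKM multiplied by gene length gave whole reads for 100% of values checked (tolerance 0.01, up to 1000 reads), 14944794 to 19243108 per library. The total that the authors divided by was 0.9335 to 1.168 times the recovered total, and 1.109 to 1.168 times in thalamus CFA. Replicates differed by more than sampling noise (chi-square per degree of freedom 7.444 to 62.27). The table held 0 columns of other samples.

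Tissue and treatment labels gave the groups. The limma package (3.58.1, R 4.3.3) tested log2(FPKM + 1), using its empirical Bayes trend, over genes averaging 1 FPKM or more in the libraries fitted (in each region for the interaction). Benjamini-Hochberg adjusted p below 0.05 was called. Fits of 3 against 3 libraries have 4 residual degrees of freedom. Log2 differences understate the change of low genes. Single values were compared with exact two-sided permutation tests (scipy 1.17.1). Promoter windows came from RefSeq, assembly GRCr8.

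The 8 members, the 4 pathway lists and the marker lists were chosen with earlier results of these data known. Of 136 list genes 134 matched, 1 by synonym. Of each list, up to 3 genes with the smallest adjusted p among those called were named, or the 1 with the smallest p, and for each member the 3 genes most like it were found. Rgs9 and Rgs14 were named for their low RVM level. A gene that the rule took is not reported here. Same-numbered libraries were not treated as pairs. Alternatives were another pseudocount (0.1), no filter, a filter at 5 FPKM, quantile normalization, median-of-ratios scaling, rescaling to the same total, quality weights, robust empirical Bayes, all 12 libraries in a single model, a replicate block, limma-voom on recovered reads, leaving out each library and, for the regions, the CFA libraries. Leaving out thalamus saline 1 with CFA 1, and thalamus CFA 1 with CFA 2, were chosen after seeing the data. In the latter the lone CFA library was assumed to vary like the saline ones.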

Additional observations from a re-analysis of the deposited data

How the results depend on the processing

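Of the counts of called genes and called members, 133 alternative values stayed within 1.5 times the reported count and 19 did not. Many of the 133 were counts of 0 beside a reported 0, which say little about stability. In thalamus CFA, 605 genes were called, against 298 with a filter at 5 FPKM, 1010 with quality weights (800 higher), 1932 with all 12 libraries in a single model (1100 higher), 66 without CFA libraries 1 and 2, and 309 to 547 when each library was left out in turn. In RVM 0 genes were called, 1 with no filter and 0 to 484 when a library was left out, 484 without CFA library 2. For the interaction these were 0, 11 with no filter and 0 to 15 when a library was left out, 15 without thalamus saline library 1. Between regions 3 members were called, and 1 with a filter at 5 FPKM, where fewer members were tested. When a library was left out 3 to 5 were called, 5 without thalamus saline library 1. Over all genes 6523 were called, and 5287 with that filter. Leaving out a library gave 4855 to 7154, with 7154 without thalamus saline library 1, so the member counts rose and fell with those of all genes.

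Same-numbered libraries correlated at 0.364, 0.063 and 0.267 in thalamus and -0.028, -0.005 and -0.010 in RVM. No label names a shared animal or batch, so the numbers were not taken to pair them. The thalamus values were all positive. The same-numbered library was the best match there for number 1 and not for numbers 2 and 3, and pairing in thalamus is not settled. With a block for replicate number, 1338 genes (755 higher) and 1 member were called in thalamus CFA, the member being Oprm1 at -0.91 with an adjusted p of 0.0281 in limma.

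No member called reversed, and the reversals below are of differences that did not pass. In thalamus CFA, quantile normalization gave Oprk1 -0.056 and Pomc -0.14, quality weights gave Penk 0.23 and Pnoc 0.20, leaving out saline 1 and CFA 1 gave Oprl1 0.036, Penk 0.28 and Pnoc 0.28, and leaving out CFA 1 and CFA 2 gave Oprl1 0.15. Leaving out each library in turn gave ranges of -0.683 to 0.061 for Pdyn, -0.615 to 0.065 for Pnoc, -0.062 to 0.169 for Pomc, -0.063 to 0.365 for Oprk1 and -0.345 to 0.054 for Oprl1. In RVM CFA Oprl1 ranged from -0.030 to 0.052. For the interaction quality weights gave Penk -0.23 and Pnoc -0.42, and leaving out libraries gave -0.24 to 0.44 for Pnoc and -0.034 to 0.366 for Oprl1. Between regions rescaling gave Pdyn -0.075 and Pnoc -0.083, limma-voom gave Pnoc -0.017, the CFA libraries gave Oprk1 -0.11, and leaving out libraries gave -0.255 to 0.488 for Pdyn and -0.184 to 0.455 for Pnoc. The cause of these changes was not tested. Oprd1 in thalamus and Oprm1 in RVM rest on 8 to 31 and 33 to 59 reads per library, which limits what differences could be detected.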
